A study of Mus musculus with 4 samples.

Results

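Cholangiocytes are the epithelial cells that line the bile ducts of the liver, and the 9 genes described here, Krt19, Krt7, Sox9, Spp1, Epcam, Tspan8, Cd24a, Bicc1 and Cldn7, are used as markers of these cells and of the ductular reaction. They were taken by symbol from a table of 25655 genes, and all 9 passed the filter on low counts that left 12967 genes for the test. RNA came from the livers of male animals of 2 genotypes on the B6129S background, bred from heterozygous parents: ADAR2+/+/GluR-B R/R, called WT, and ADAR2-/-/GluR-B R/R, called KO. ADAR2, encoded by Adarb1, is an enzyme that converts adenosine to inosine in double-stranded RNA. Both genotypes carry the GluR-B R/R allele, which encodes the edited form of a glutamate receptor subunit and rescues ADAR2-deficient mice from early death, so the comparison says nothing about livers without that allele. The loss of ADAR2 is present in the whole animal and not in the liver alone. From 5 weeks of age the mice received a high-fat diet (HFD) for 12 weeks, and HFD-WT and HFD-KO were each represented by 2 libraries of polyadenylated RNA. Whether a library held the RNA of one mouse or of several is not stated for the sequencing itself. The legend of the study's pathway analysis of these livers gives more mice per group than there are libraries, so libraries may be pools, and the p-values measure only the spread between these libraries.

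In a healthy liver, cholangiocytes make up a small part of the tissue, which consists mostly of hepatocytes. After injury, cells with biliary features multiply at the margins of the portal tracts and form irregular ductules, which is called the ductular reaction. Notch signalling and the transcriptional coactivator YAP are known to favour the biliary fate, and the ductular cells secrete osteopontin, the product of Spp1, which attracts inflammatory cells and activates stellate cells. Osteopontin is also made by lipid-laden macrophages and by activated stellate cells, and CD24 by several blood cells, so in RNA from whole tissue neither Spp1 nor Cd24a reports on ducts alone. In such bulk samples, fewer cells of a type and less RNA per cell cannot be told apart.

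The 4 libraries held 24480798 to 28691330 reads assigned to genes, at which 3 reads correspond to 0.104 to 0.126 CPM (counts per 1000000 reads of the library, with library sizes scaled by TMM factors of 0.976 to 1.02). Adarb1 was counted with 454 and 545 reads in HFD-WT and with 164 and 228 reads in HFD-KO (log2 fold change -1.17, SE 0.20, adjusted p = 0.159 by the edgeR quasi-likelihood test), so it was lower in both libraries labelled KO without passing the test. These counts cover the whole gene, whichever part was deleted. The label of liver cells was checked against hepatocyte markers. All 9 such markers found in the table were tested, none had an unadjusted p under 0.05 (3 without HFD-KO 2 and 1 without HFD-KO 1), and their summed level was 86700 to 87800 CPM in HFD-WT and 87000 to 99600 CPM in HFD-KO, with Cyp2e1, a cytochrome P450 gene, at 8740 to 10700 CPM and Alb, the gene of serum albumin, at 53700, 54900, 52700 and 66100 CPM in HFD-WT 1, HFD-WT 2, HFD-KO 1 and HFD-KO 2. HFD-KO 1 held more B and plasma cell RNA than the other libraries (a summed level of 20.7 CPM against 4.54 to 5.73 CPM), and HFD-KO 2 the most haemoglobin RNA.

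Of the 9 genes, Spp1 alone had an unadjusted p under 0.05 by edgeR, and it was lower in HFD-KO at 0.65 times its level in HFD-WT. No member passed the threshold of 0.05 on the adjusted p of edgeR, against 10 of all 12967 genes tested (0.0771%). At an unadjusted p under 0.05, 1 member was lower and 0 were higher, where 4.73% of all genes tested were lower and 4.25% were higher. For 9 genes, a count of 1 is close to these shares. Without HFD-KO 1, the log2 fold change was -0.79 for Spp1 and -1.16 for Tspan8, in place of -0.62 and -0.59. In 2 members, Spp1 and Bicc1, both HFD-KO libraries lay below both HFD-WT libraries, and in 0 members they lay above, beside 20.3% of all genes tested below and 20.5% above. The median log2 fold change of the 9 members was -0.11 (2 positive and 7 negative), and that of all genes tested was 0.01.

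**Figure D1:**
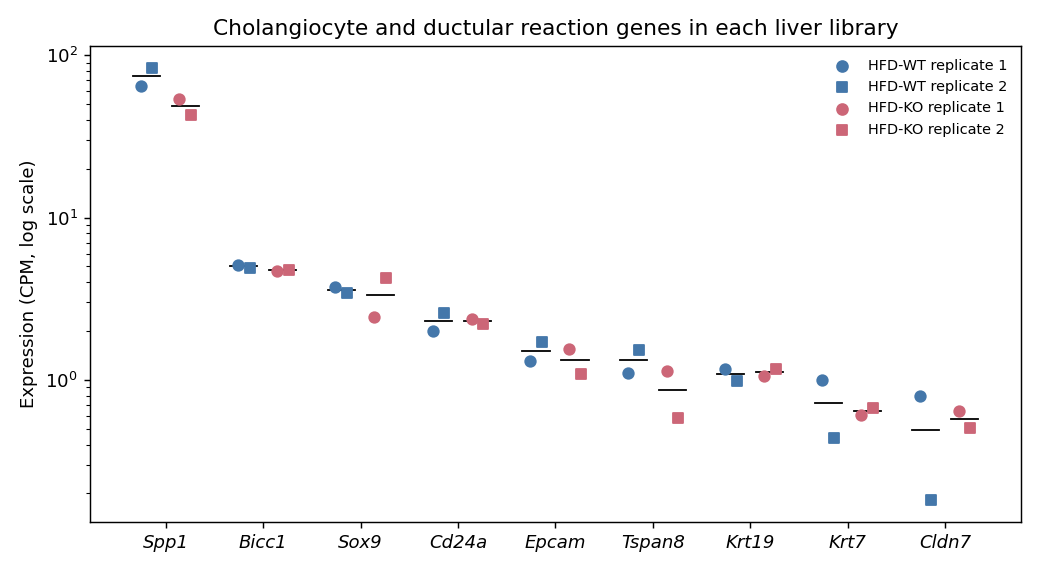
Level of each of the 9 cholangiocyte and ductular reaction genes in the 2 HFD-WT and 2 HFD-KO libraries, in CPM on a log axis, with a point for each library and a short line at each group's mean. Spp1 lies between 42.8 and 83.9 CPM, and the other 8 genes lie between 0.182 and 5.11 CPM.

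The levels of the members were set in order per gene length, as reads per kilobase and library size (RPKM), averaged over the 4 libraries. Spp1 was highest at 34.3 RPKM, which was 33.0 times the level of Cd24a at 1.04 RPKM, and the libraries of this pair did not overlap. Cd24a in turn was 1.28 times Bicc1 (0.811 RPKM), again without overlap. From there on, each neighbour in the order overlapped with the next: Bicc1, Sox9 (0.776 RPKM), Krt19 (0.644), Epcam (0.597), Tspan8 (0.592), Cldn7 (0.252) and Krt7 (0.146). In CPM, Spp1 stood above 83.2% of the genes tested, whereas Cldn7 stood above 3.59% and Krt7 above 5.78%. Spp1 therefore supplied most of the members' reads, with 79.8% and 84.2% in HFD-WT and 78.8% and 73.7% in HFD-KO. The summed level of all 9 genes was 80.6 and 99.6 CPM in HFD-WT and 68.3 and 58.1 CPM in HFD-KO, while that of the 8 genes other than Spp1 was 16.3 and 15.7 CPM against 14.5 and 15.3 CPM.

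Spp1 (ENSMUSG00000029304, chr5:104582984-104588916, plus strand, GRCm39) encodes osteopontin, a secreted phosphoprotein that binds integrins and CD44. Its promoter is shown because it had the lowest unadjusted p of the 9 members. That of Tspan8 is shown because Tspan8 was the member whose pattern over the 4 libraries was most like that of Spp1. The sequences are the RefSeq windows of GRCm38.p6 from 250 bases before to 50 bases after a transcription start, at chr5:104434861-104435160 and chr10:115817034-115817333, both on the plus strand, and capitals mark a SOX motif, searched as ACAAAG or ACAATG on both strands.
Spp1: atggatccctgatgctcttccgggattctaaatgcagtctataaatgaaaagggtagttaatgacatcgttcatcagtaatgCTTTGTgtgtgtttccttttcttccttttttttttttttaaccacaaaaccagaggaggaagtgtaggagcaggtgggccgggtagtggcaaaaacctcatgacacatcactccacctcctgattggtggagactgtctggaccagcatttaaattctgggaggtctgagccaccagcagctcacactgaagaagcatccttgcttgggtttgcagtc
Tspan8: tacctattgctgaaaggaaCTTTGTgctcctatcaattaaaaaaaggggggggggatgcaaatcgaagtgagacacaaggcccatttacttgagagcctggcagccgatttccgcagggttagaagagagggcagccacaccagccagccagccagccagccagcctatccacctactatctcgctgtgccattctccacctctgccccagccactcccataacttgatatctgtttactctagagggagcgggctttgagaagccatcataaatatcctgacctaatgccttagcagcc
The motif lies 168 bases before the start of Spp1 and 231 bases before that of Tspan8, and it occurs in 28.6% of the 32851 promoter windows in the table. A further Spp1 start, whose window begins at position 104435942, has the SOX motif 243 bases upstream. Of the 9 members, 5 had a promoter in the table, in 7 windows. The TEAD motif (GGAATG, in 14.7% of windows) was found once, 70 bases before a start of Cldn7, and the RBPJ motif (TGGGAA, in 25.6% of windows) once, 164 bases before another start of Cldn7. The windows of Krt7 and Epcam held none of these letters.

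Spp1 was counted with 1862 and 2308 reads in the HFD-WT libraries and with 1416 and 1023 reads in the HFD-KO libraries, or 64.3 and 83.9 CPM against 53.8 and 42.8 CPM. Both HFD-KO libraries were below both HFD-WT libraries, and the gap between the groups was smaller than the difference within HFD-WT. The means were 74.1 ± 13.9 CPM (SD, n = 2) and 48.3 ± 7.75 CPM (SD, n = 2). The log2 fold change was -0.62 (SE 0.15, 95% interval -0.98 to -0.26), with an unadjusted p of 0.0046 and an adjusted p = 0.313 by edgeR over the genes tested. Replicates differed beyond counting error in both groups, with a ratio of the second to the first library of 1.31 in HFD-WT (95% exact interval 1.23 to 1.39) and of 0.796 in HFD-KO (0.734 to 0.864). The log2 fold change was negative in 12 of 12 settings of the analysis. These settings reuse the same libraries, so the shared sign follows largely from the lack of overlap. The log2 fold change was -0.62 by DESeq2 (adjusted p = 0.0315) and -0.62 in edgeR without the filter on low counts (adjusted p = 0.0336). It was -0.79 without HFD-KO 1, -0.46 without HFD-KO 2 and -0.41 without HFD-WT 2. In each of these last fits a group had a lone library. Spp1 overlaps the gene Gm42793 in the table, which held at most 6 reads in a library.

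**Figure D2:**
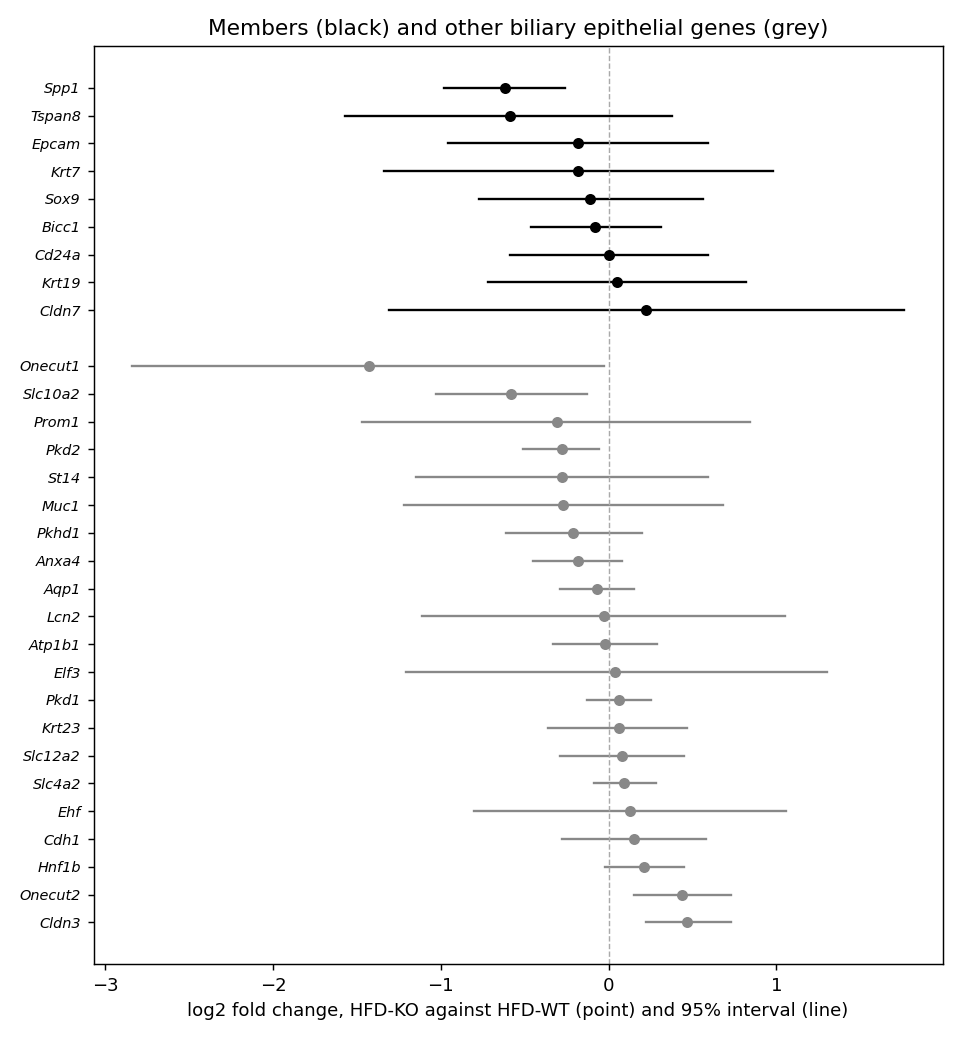
Log2 fold change, HFD-KO against HFD-WT, of each of the 9 genes (black) and of the 21 tested genes of the list of other biliary genes (grey) from the edgeR fit, as points with 95% intervals as lines. The interval of Spp1 runs from -0.98 to -0.26, those of the other 8 members include 0, and the grey intervals that leave out 0 lie on both sides of it.

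Krt19 and Krt7 encode type I and type II keratins of the cholangiocyte cytoskeleton that hepatocytes lack. Krt19 (ENSMUSG00000020911, chr11:100031636-100039491, minus strand) was counted with 34 and 27 reads in HFD-WT and 28 reads in each HFD-KO library, or 1.17, 0.982, 1.06 and 1.17 CPM. The libraries of both groups overlapped, and the log2 fold change was 0.05 (SE 0.33, 95% interval -0.72 to 0.82, adjusted p = 0.978). As a fold this interval runs from 0.61 to 1.77, so changes within these bounds are not excluded by these libraries. Krt7 (ENSMUSG00000023039, chr15:101308924-101328194, plus strand) had 29 and 12 reads in HFD-WT and 16 reads in each HFD-KO library, or 1.0, 0.436, 0.608 and 0.670 CPM. Both HFD-KO libraries fell between those of HFD-WT, which differed from each other beyond counting error (ratio 0.436, 95% exact interval 0.202 to 0.880). The log2 fold change of Krt7 was -0.18 (SE 0.49, 95% interval -1.34 to 0.98, adjusted p = 0.943), and its sign rested on HFD-WT 1, without which it was 0.54.

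Sox9 (ENSMUSG00000000567, chr11:112673050-112678586, plus strand) encodes a transcription factor of the SOX family that marks biliary cells from the ductal plate onward and is switched on in hepatocytes taking on biliary features. It was counted with 109 and 94 reads in HFD-WT and with 64 and 102 reads in HFD-KO, or 3.76, 3.42, 2.43 and 4.27 CPM. The lowest and the highest library were both HFD-KO, and their ratio of 1.76 (95% exact interval 1.27 to 2.44) was beyond counting error. The log2 fold change was -0.11 (SE 0.28, 95% interval -0.77 to 0.56, adjusted p = 0.939), and it was 0.25 without HFD-KO 1.

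Epcam, Tspan8, Cd24a and Cldn7 encode proteins of the epithelial cell surface. Epcam (ENSMUSG00000045394, chr17:87943407-87958557, plus strand), a cell adhesion molecule, had 38 and 47 reads in HFD-WT and 41 and 26 reads in HFD-KO, or 1.31, 1.71, 1.56 and 1.09 CPM, and the groups overlapped (log2 fold change -0.18, SE 0.33, adjusted p = 0.903). Tspan8 (ENSMUSG00000034127, chr10:115652737-115685798, plus strand), a tetraspanin that organises membrane proteins, had 32 and 42 reads in HFD-WT and 30 and 14 reads in HFD-KO, or 1.10, 1.53, 1.14 and 0.586 CPM. HFD-KO 2 was the lowest library, HFD-KO 1 lay within the range of HFD-WT, and the log2 fold change was -0.59 (SE 0.42, 95% interval -1.57 to 0.38, adjusted p = 0.714). This estimate is close in size to that of Spp1, from under 50 reads per library, and its interval is wider.

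Cd24a (ENSMUSG00000047139, chr10:43454280-43460261, plus strand), which encodes a small glycoprotein anchored in the plasma membrane, had 58 and 71 reads in HFD-WT and 62 and 53 reads in HFD-KO. Its level was 2.00, 2.58, 2.36 and 2.22 CPM, with both HFD-KO libraries between those of HFD-WT, and its log2 fold change was -0.00068 (SE 0.25, 95% interval -0.59 to 0.59, adjusted p = 0.999). Cldn7 (ENSMUSG00000018569, chr11:69855605-69858711, plus strand), a claudin that binds EpCAM, had 23 and 5 reads in HFD-WT and 17 and 12 reads in HFD-KO, or 0.794, 0.182, 0.646 and 0.502 CPM. The HFD-WT libraries differed beyond counting error (ratio 0.229, 95% exact interval 0.068 to 0.616) and enclosed those of HFD-KO. The log2 fold change of 0.22 (SE 0.66, 95% interval -1.31 to 1.76, adjusted p = 0.947) turned to -0.46 without HFD-WT 2.

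Bicc1 (ENSMUSG00000014329, chr10:70758662-70995530, minus strand) encodes an RNA-binding protein of tubular epithelia whose loss leads to cysts in kidney and bile ducts. It was counted with 148 and 135 reads in HFD-WT and with 124 and 114 reads in HFD-KO, or 5.11, 4.91, 4.71 and 4.77 CPM. The groups did not overlap, with means of 5.01 ± 0.143 CPM (SD, n = 2) and 4.74 ± 0.0445 CPM (SD, n = 2), but the difference was small, with a log2 fold change of -0.08 (SE 0.16, 95% interval -0.46 to 0.31, adjusted p = 0.920). Bicc1 had the narrowest interval after Spp1, a fold of 0.72 to 1.24.

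**Figure D3:**
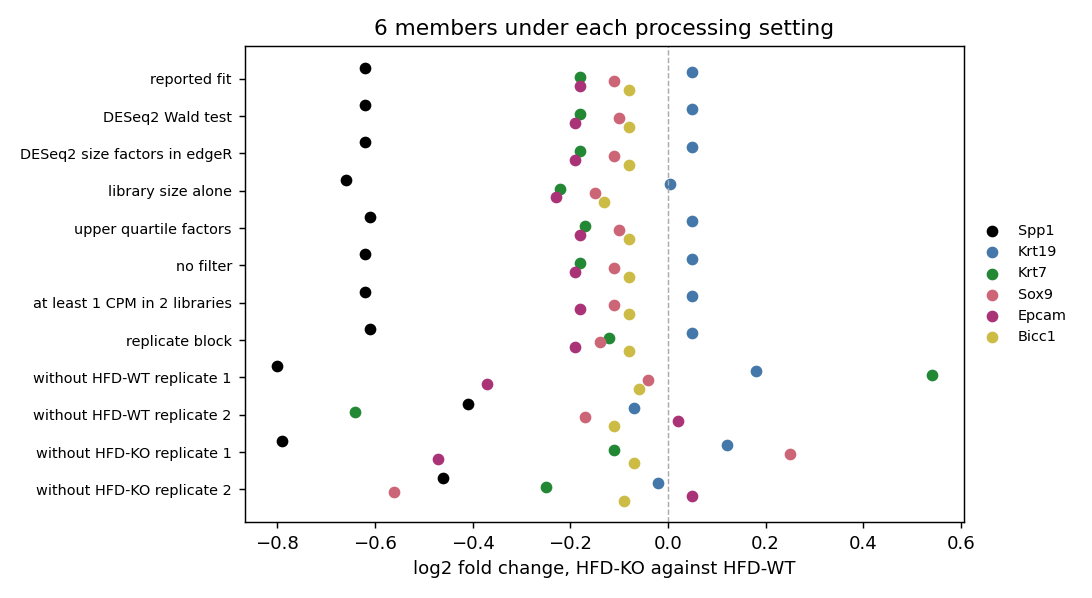
Log2 fold change, HFD-KO against HFD-WT, of Spp1, Krt19, Krt7, Sox9, Epcam and Bicc1 (colours) under each of the 12 settings of the analysis (rows), of which the lowest 4 rows each leave out a library. Spp1 lies between -0.80 and -0.41 in all 12 settings, and Krt7 spans -0.64 to 0.54, with no point under the filter of 1 CPM.

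The likeness of patterns was measured as the root mean square difference of log2(CPM + 0.1), centred on each gene's own mean, over the 4 libraries. It is given as a description, and the added 0.1 lowers these differences for genes at low CPM. Spp1 and Tspan8 were each other's nearest member (0.19), and the gene nearest to Spp1 among the other biliary genes was Slc10a2 (0.19). Krt19 and Bicc1 were likewise nearest to each other (0.098), Cd24a was nearest to Bicc1 (0.15), and Krt7 and Sox9 were nearest to Krt19 (0.29 and 0.26). Among the other biliary genes, Krt23 was nearest to Krt19 (0.048) and Atp1b1 to Cd24a (0.048). The nearest partners of Cldn7 were further away, Krt7 at 0.36 and Cldn3 at 0.50.

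A list of 26 other genes of the biliary epithelium (transporters, cilia proteins, junction proteins and transcription factors) moved in no common direction. Of the 21 that were tested, 2 were higher and 3 lower in HFD-KO at an unadjusted p under 0.05. None passed the adjusted threshold, and the median log2 fold change was -0.02. Of all genes tested, 4.25% were higher and 4.73% lower at that unadjusted threshold, the shares to set beside each list's count. The junction gene Cldn3 was higher, at 73.6 and 60.1 CPM in HFD-WT and 90.6 and 94.9 CPM in HFD-KO (log2 fold change 0.47, SE 0.11, adjusted p = 0.262), as was the transcription factor gene Onecut2, at 63.3 and 50.8 CPM against 72.5 and 82.2 CPM (0.44, SE 0.12, adjusted p = 0.369). Hepatocytes express both of these genes too, and which cells gave the reads of any gene of this list was not tested. Slc10a2, the bile acid transporter of the cholangiocyte's luminal face, had 14.8 and 22.6 CPM against 11.8 and 13.2 CPM (-0.58, SE 0.19, adjusted p = 0.447). Pkd2, which encodes a calcium channel of the primary cilium, had 17.4 and 18.7 CPM against 14.4 and 15.2 CPM (-0.28, SE 0.10, adjusted p = 0.451). The third lower gene, the transcription factor gene Onecut1, had 34.8 and 9.05 CPM against 5.01 and 11.3 CPM (-1.43, SE 0.60, adjusted p = 0.544), so the groups overlapped and HFD-WT 1 stood apart. The 2 most abundant genes of the list were Lcn2, an acute-phase gene that hepatocytes also express, with 103, 104, 45.3 and 158 CPM, and the water channel gene Aqp1, with 95.8, 103, 101 and 88.9 CPM. The genes most restricted to ducts, Cftr and Sctr, had at most 6 reads in a library and were not tested, nor were Cldn4 and Ggt1. Without HFD-WT 2, 2 genes in place of 5 had an unadjusted p under 0.05.

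Among 8 keratin partners and linkers, of which 6 were tested, 2 were lower and none was higher at an unadjusted p under 0.05. Ppl, encoding the plakin periplakin, had the lowest adjusted p of all listed genes, with 36.2 and 42.6 CPM in HFD-WT and 22.3 and 23.7 CPM in HFD-KO (log2 fold change -0.78, SE 0.10, adjusted p = 0.0693). Krt8, a keratin that hepatocytes and cholangiocytes share, had 341 and 335 CPM against 280 and 280 CPM (-0.27, SE 0.08, adjusted p = 0.394), while its partner Krt18 had 203 and 204 CPM against 213 and 202 CPM. The count of 2 was 1 without either HFD-WT library.

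Of 15 genes of the Notch pathway, 14 were tested and 1 had an unadjusted p under 0.05. This was the target gene Hes1, with 9.53 and 9.38 CPM in HFD-WT and 5.66 and 7.75 CPM in HFD-KO (log2 fold change -0.50, SE 0.17, adjusted p = 0.451), while the most abundant members of the pathway, Notch2 (40.5 to 50.4 CPM) and Numb (35.7 to 39.4 CPM), had higher p-values. Of 15 genes of the YAP and TEAD pathway, 14 were tested, 2 were higher and 4 lower at that threshold. The target genes differed in direction, Ccn1 with 13.5 and 13.7 CPM against 22.8 and 18.4 CPM (0.60, SE 0.12, adjusted p = 0.231) and Ccn2 with 16.5 and 20.1 CPM against 13.1 and 12.4 CPM (-0.52, SE 0.12, adjusted p = 0.262). The DNA-binding partner Tead1 (-0.33, SE 0.10, adjusted p = 0.398) and the receptor kinase gene Axl (-0.45, SE 0.15, adjusted p = 0.445) were lower, and the most abundant genes were Yap1 itself at 74.1 to 82.2 CPM and Amotl2, encoding an angiomotin that binds YAP, at 44.8 to 51.4 CPM. Without HFD-WT 2 the count at that threshold was 3 in place of 6 for the YAP and TEAD pathway and 0 in place of 1 for the Notch pathway.

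Of 17 genes that signal in the ductular reaction, 13 were tested, with 2 higher and 1 lower at an unadjusted p under 0.05. The receptor gene of hepatocyte growth factor, Met, had 42.4 and 44.0 CPM in HFD-WT and 47.2 and 62.3 CPM in HFD-KO (log2 fold change 0.34, SE 0.13, adjusted p = 0.509). The chemokine gene Cxcl12 had 289 and 264 CPM against 378 and 361 CPM (0.42, SE 0.09, adjusted p = 0.233), and the TGF-beta receptor gene Tgfbr2 had 32.8 and 35.3 CPM against 27.4 and 24.2 CPM (-0.40, SE 0.09, adjusted p = 0.271). TWEAK (Tnfsf12) and its receptor (Tnfrsf12a), which drive the proliferation of ductular cells, lay between 10.4 and 13.4 CPM in all 4 libraries.

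All 7 osteopontin receptor genes were tested and 2 were lower in HFD-KO at an unadjusted p under 0.05, with a median log2 fold change of -0.12. Cd44 had 9.36 and 10.8 CPM in HFD-WT and 8.36 and 7.91 CPM in HFD-KO (log2 fold change -0.31, SE 0.13, adjusted p = 0.551), and Itga9 had 19.0 and 21.7 CPM against 15.6 and 17.6 CPM (-0.30, SE 0.11, adjusted p = 0.487). The most abundant were Itgb1 (152 and 153 CPM against 134 and 145 CPM) and Itgb5 (95.5 and 98.4 CPM against 87.4 and 91.2 CPM). Among the 13 genes encoding partners of EpCAM, the tetraspanins, CD24 and Bicc1, all tested, none had an unadjusted p under 0.05, and the most abundant were Cd81 (331 to 382 CPM) and Psen2 (133 to 147 CPM). Without HFD-WT 2 the count of osteopontin receptors was 0 in place of 2, it was also 0 by DESeq2 and 1 without HFD-KO 1, and without HFD-KO 2 the count of the partners was 1 in place of 0.

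**Figure D4:**
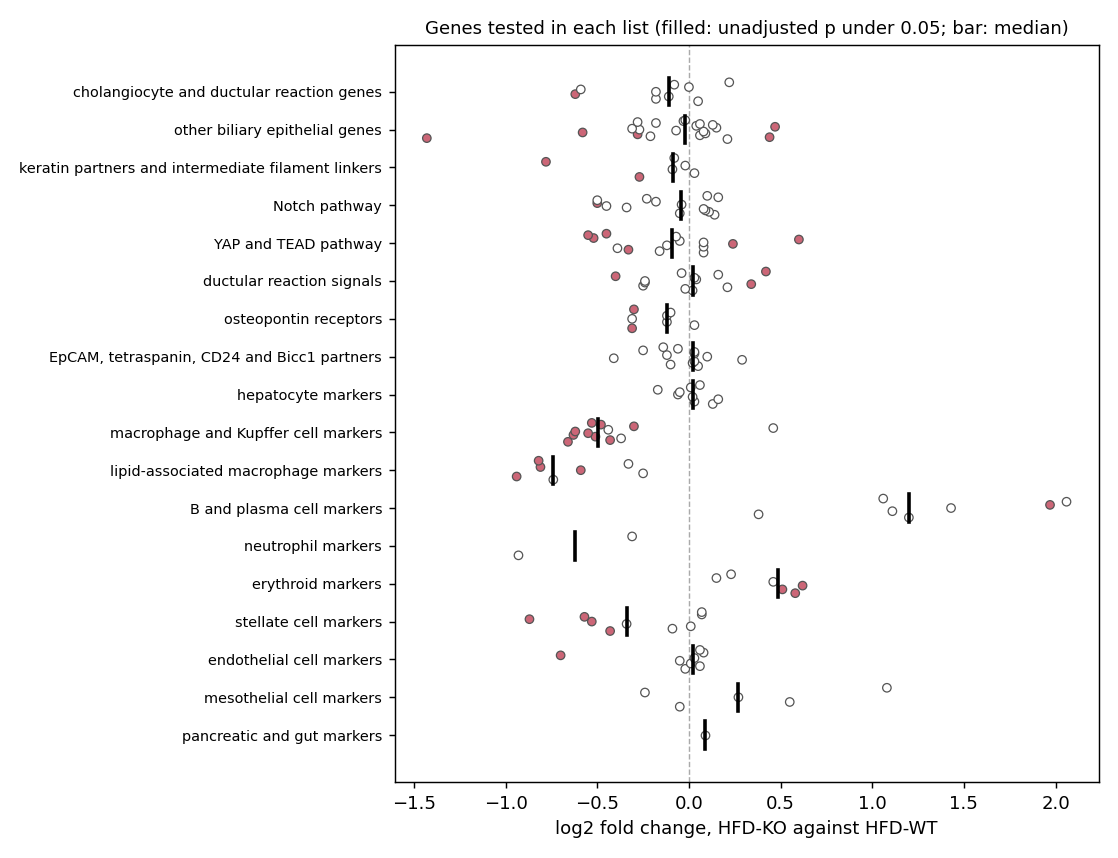
Log2 fold change, HFD-KO against HFD-WT, of every tested gene of each list (points), filled where the unadjusted p by edgeR was under 0.05, with a bar at each list's median. The macrophage and Kupffer cell list holds 9 filled points of 12, all negative, the 9 members hold 1, and no gene of these lists passed the adjusted threshold.

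Because cells other than cholangiocytes express Spp1, the markers of those cells are given beside it. Of 12 macrophage and Kupffer cell markers, all tested, 9 were lower and 0 were higher in HFD-KO at an unadjusted p under 0.05, with a median log2 fold change of -0.49 and a summed level of 491 and 615 CPM in HFD-WT and 401 and 381 CPM in HFD-KO. Their HFD-KO libraries lay below both HFD-WT libraries for 10 of the 12 genes and above for 0. Of all genes tested, 20.3% lay below in this way and 20.5% above. Without HFD-WT 2, 4 genes in place of 9 were past that threshold and the median was -0.31. The phagocyte receptor gene Vsig4 had 19.4 and 21.2 CPM against 12.9 and 13.3 CPM (log2 fold change -0.63, SE 0.10, adjusted p = 0.112), and Mpeg1, encoding a pore-forming protein, had 119 and 139 CPM against 93.4 and 82.8 CPM (-0.55, SE 0.11, adjusted p = 0.212). The Kupffer cell gene Cd5l (-0.62, SE 0.13, adjusted p = 0.233) and the complement gene C1qc (-0.53, SE 0.12, adjusted p = 0.262) were also lower. Marco went the other way, with 5.52 and 4.07 CPM against 4.56 and 8.71 CPM (0.46, SE 0.31, adjusted p = 0.707).

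Of 7 markers of lipid-associated macrophages, cells that take up lipid in the fatty liver and are known to express Spp1, 4 were lower and 0 higher, with a median of -0.74 and a summed level of 81.7 and 97.0 CPM in HFD-WT and of 57.9 CPM in each HFD-KO library. Gpnmb had 9.98 and 15.3 CPM against 8.36 and 4.73 CPM (-0.94, SE 0.29, adjusted p = 0.407), and Cd63, encoding a tetraspanin of lysosomes, had 24.2 and 24.8 CPM against 11.9 and 15.9 CPM (-0.82, SE 0.14, adjusted p = 0.135). The galectin gene Lgals3 (-0.59, SE 0.13, adjusted p = 0.260) and the integrin gene Itgax (-0.81, SE 0.22, adjusted p = 0.359) were lower as well, while Cd9 overlapped between the groups at 17.8 and 20.8 CPM against 12.8 and 19.6 CPM, and Trem2 had 4.66 and 5.38 CPM against 4.29 and 1.67 CPM. Without HFD-WT 2 the count was 2 in place of 4. Of 9 stellate cell markers, all tested, 4 were lower and 0 higher, with a median of -0.34 and a summed level of 381 and 427 CPM against 334 and 270 CPM. These were Reln (54.3 and 60.0 CPM against 42.7 and 36.4 CPM, -0.53, SE 0.11, adjusted p = 0.231), the proteoglycan gene Dcn (179 and 202 CPM against 165 and 119 CPM, -0.43, SE 0.15, adjusted p = 0.480) and the collagen genes Col1a1 (30.3 and 34.2 CPM against 21.0 and 14.4 CPM, -0.87, SE 0.17, adjusted p = 0.210) and Col3a1 (54.0 and 61.9 CPM against 45.3 and 32.5 CPM, -0.57, SE 0.16, adjusted p = 0.359), whose products stellate cells deposit when activated. Of the markers that did not pass, Pdgfrb had a log2 fold change of -0.34, Lrat, a vitamin A enzyme gene, -0.09, Des 0.01 and Rgs5 0.07, and Acta2, the smooth muscle actin gene of activated stellate cells (2.21 and 3.02 CPM against 3.61 and 1.84 CPM, 0.07, SE 0.35, adjusted p = 0.973), overlapped between the groups. The median was -0.65 without HFD-KO 1 and -0.21 without HFD-KO 2. Relative to the HFD-WT mean, Spp1 was at 0.726 and 0.578 in the HFD-KO libraries. The part of macrophages and stellate cells in the Spp1 difference was not tested.

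**Figure D5:**
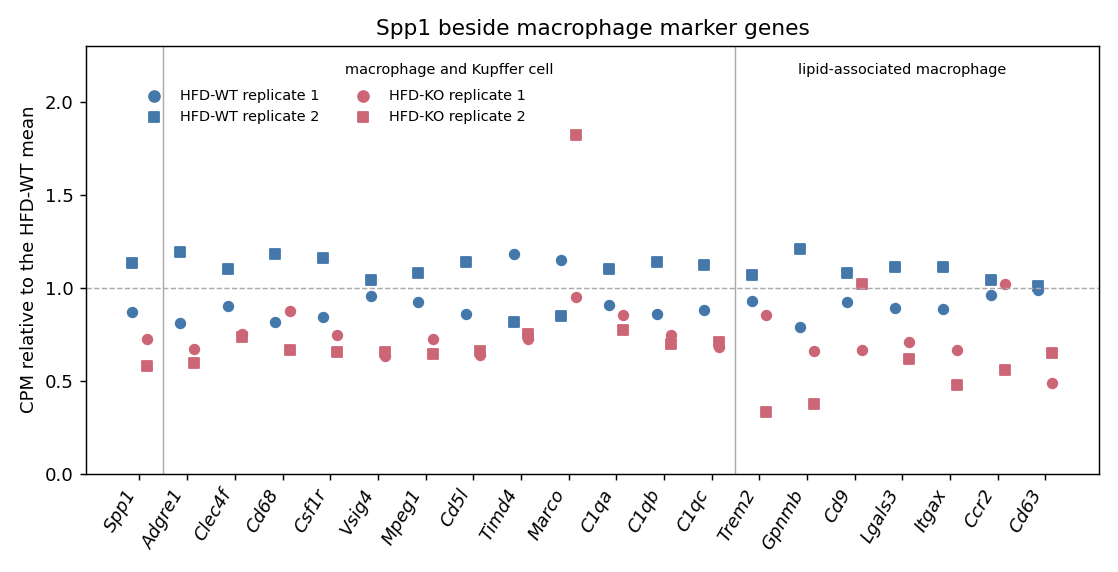
Level of Spp1 and of the macrophage, Kupffer cell and lipid-associated macrophage markers in each library, as CPM relative to the mean of HFD-WT, with a dashed line at 1 (colour: group, shape: replicate). Spp1 is at 0.726 and 0.578 in HFD-KO 1 and HFD-KO 2, and Marco is highest in HFD-KO 2.

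The other cell type lists varied in the direction and size of their differences. Of 8 endothelial markers, 1 was lower at an unadjusted p under 0.05, the gene of the lymphatic and sinusoidal receptor Lyve1 (log2 fold change -0.70, SE 0.15, adjusted p = 0.233), while the sinusoidal genes Stab2 (57.0 to 71.8 CPM) and Clec4g (36.3 to 45.8 CPM) overlapped between the groups. Of 6 tested erythroid markers, 3 were higher at that threshold, with a median of 0.48 and a summed level of 758 and 601 CPM in HFD-WT and of 811 and 1150 CPM in HFD-KO, namely the globin genes Hbb-bs (0.62, SE 0.20, adjusted p = 0.436), Hba-a1 (0.58, SE 0.19, adjusted p = 0.437) and Hba-a2 (0.51, SE 0.17, adjusted p = 0.451). Both HFD-KO libraries lay above both HFD-WT libraries for 4 of these 6 genes and below for 0, beside 20.5% and 20.3% of all genes tested. The count of 3 was 1 by DESeq2. The erythroid median was 0.37 without HFD-WT 2, 0.19 without HFD-KO 2 and 0.78 without HFD-KO 1. Of 7 tested B and plasma cell markers, 1 was higher, Jchain, with 1.48 and 1.05 CPM against 8.21 and 1.72 CPM (1.97, SE 0.65, adjusted p = 0.445), and the difference was carried by HFD-KO 1, without which the list's median was 0.19 in place of 1.20 (Cd79a, of the B cell receptor, had 0.725 and 0.945 CPM against 2.92 and 0.879 CPM). This median was 1.04 without HFD-WT 2, 1.53 without HFD-WT 1 and 1.81 without HFD-KO 2, and the count of 1 was 0 by DESeq2. Neutrophil markers (2 tested of 8), mesothelial markers (5 of 7) and pancreatic and gut markers (1 of 10) had 0 genes at that threshold. Leaving out a library gave median log2 fold changes of -1.86 to 0.10 for the neutrophil list and -0.23 to 0.80 for the mesothelial list. For the pancreatic and gut list these were 0.26 to 1.76. S100a8 and S100a9, the most abundant neutrophil genes, were lowest in HFD-KO 1 (0.304 and 0.912 CPM), and the most abundant pancreatic gene was Cela1, at 8.96 to 11.5 CPM. Mesothelial cells also express Krt19 and Krt7, and the summed level of their markers was 9.88 and 5.27 CPM in HFD-WT and 9.19 and 6.87 CPM in HFD-KO (most abundant Gpm6a at 2.01 to 3.21 CPM and Msln at 0.982 to 2.56 CPM). In HFD-WT the library with the higher sum had more Krt7 and Cldn7, while its Krt19 differed by less than counting error. In HFD-KO, the Krt7, Krt19 and Cldn7 levels of the libraries each differed by less than counting error. The gut and exocrine pancreas genes Prss2, Try4, Lypd8 and Reg1 had 0 reads in every library. The part of these cells in the members' levels was not tested.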

How the data were processed

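The study sequenced directional, paired-end libraries of polyadenylated liver RNA, 2 for each group. The study's methods name mm10 and quantification in Partek with GENCODE, while the submitters' processing notes name GRCm39 and mm10. The members' coordinates are those of the table and were taken as GRCm39, since 9 of 9 spans have the same length as in GENCODE M21, which is on GRCm38, and 0 of 9 have the same start. The deposited table holds counts per gene, which the authors made from the aligned reads, and the authors' RPKM and TPM values. Gene lengths were derived from the deposited counts and RPKM, and TMM-scaled CPM divided by that length gave the RPKM printed here. The deposited TPM was not used. A deposited column named CPM, which differs from the counts over the library total by a factor near 1, was classed as a score and was not used. Whether counting used strand, or how reads shared by paralogs were assigned, is not given in the sources used here. No batch is given in the labels.

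From the counts, edgeR 4.0.16 (filterByExpr, TMM, quasi-likelihood F test, 12967 of 25655 genes, Benjamini-Hochberg adjustment) in R 4.3.3 gave log2 fold changes, with SE as the fold change divided by the square root of F. Intervals of replicate ratios are exact Clopper-Pearson intervals and, like the 3-read floor, cover counting error only. The script was tested on simulated data. The alternatives were DESeq2 1.42.0, other scaling factors, other filters, the replicate number as a block and leaving out each library. The genes named are all members and, in each list, up to 4 genes with the smallest unadjusted p under 0.05 and the 2 with the highest mean CPM. Some listed genes were named for their role after their values were seen (Onecut1, Cftr, Sctr, Cldn4, Ggt1, Tnfsf12, Tnfrsf12a, Trem2, Marco, Acta2, Lrat, Des, Rgs5, Pdgfrb and the genes at 0 reads), and 1 listed gene is not reported here. The members, the lists and the tests were chosen with earlier results of these data known, and the lists were not independent of them.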

Additional observations from a re-analysis of the deposited data

How the results depend on the processing

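The count of genes past the adjusted threshold over all genes, 10, was 117 by DESeq2, 162 without the filter, 6 with library size alone, 6 with upper quartile factors, 6 with a filter of 1 CPM in 2 libraries and 20 with the replicate block, and it ran from 0 (edgeR without HFD-WT 2, with 255 higher and 207 lower at an unadjusted p under 0.05) to 705 (without HFD-KO 1) when a library was left out, 411 without HFD-KO 2. In these fits the lone library of a group is assumed to vary like the other group. The replicates differed less in HFD-WT (chi-square of the counts per degree of freedom 10.3) than in HFD-KO (41). Counts over all genes at the unadjusted threshold also differed between these fits, so a change in a list's count need not be particular to that list. Of the members, 1 (Spp1) was called by DESeq2 and without the filter, and 0 to 1 when a library was left out. The Spp1 log2 fold change was -0.62 by DESeq2, -0.62 without the filter and -0.80 to -0.41 without a library. Leaving out a library gave -0.07 to 0.18 for Krt19, -0.64 to 0.54 for Krt7, -0.56 to 0.25 for Sox9, -0.47 to 0.05 for Epcam, -0.18 to 0.19 for Cd24a and -0.46 to 1.63 for Cldn7, so their signs rest on single libraries. Cd24a was 0.0028 with upper quartile factors and 0.01 with the replicate block. Nothing in the labels says that the replicate numbers pair samples. The deviations from the group means correlated across genes at r = -0.0872 between HFD-WT 1 and HFD-KO 1. With 2 libraries per group this value cannot exclude a pairing. The block changed no member's call (Spp1 -0.61, adjusted p = 0.44 by edgeR). The listed genes with an unadjusted p under 0.05, 41 in all, ran from 18 (without HFD-WT 2) to 56 (without HFD-KO 2). With library size alone, 346 genes were higher and 894 lower at an unadjusted p under 0.05, in place of 551 and 613. Krt7 and Cldn7 gave no value with the filter of 1 CPM. The cause of these changes was not tested. With under 50 reads in a library for Krt19, Krt7, Epcam, Tspan8 and Cldn7, depth limits the precision of their folds.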
